A study of Mus musculus with 24 samples.

Results

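The nuclear genes for subunits of the mitochondrial respiratory chain and of ATP synthase were followed through the lungs of Marfan and wild-type mice with and without sildenafil. The set was chosen with earlier results of these data known, and its members were taken by symbol. Included were symbols that begin with Ndufa, Ndufb, Ndufc, Ndufs or Ndufv and a number, with Uqcr, Cox4 to Cox8 or Atp5, and Sdha to Sdhd. The complex I subunit Ndufab1 and the complex III subunit Cyc1 lie outside this rule. The rule gave 84 of the 19505 genes tested. By complex these are 37 genes of complex I, 4 of complex II, 8 of complex III, 18 of complex IV and 17 of complex V. Each gene had a single probe set, all 84 were found in the RefSeq gene table, and they lie on 19 chromosomes, with at most 8 on any of them.

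The respiratory chain passes electrons from NADH (through complex I) and succinate (through complex II) to ubiquinone, then by way of complex III and cytochrome c to complex IV, which reduces oxygen. Complexes I, III and IV pump protons across the inner mitochondrial membrane, and complex V, the ATP synthase, uses that gradient to make ATP. A few core subunits carry the redox centres or the catalytic sites, and a larger number of small accessory subunits, all encoded in the nucleus, stabilise and regulate the complexes. In lung the chain is active in most cell types, and several complex IV subunits have alternative isoforms whose expression is tied to heart and skeletal muscle, to testis or to oxygen-sensing cells.

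Marfan syndrome is an inherited connective tissue disorder, and sildenafil inhibits phosphodiesterase 5, the enzyme that degrades cyclic GMP. Lungs were taken at 6 months of age, and sildenafil had been added to the drinking water beginning at 6 weeks of age. Arrays with values numbered 5 for Marfan lungs with sildenafil, 5 for Marfan lungs with vehicle, 4 for wild-type lungs with sildenafil and 6 for wild-type lungs with vehicle. The sources used here do not give the Marfan allele, the strain, the sex or the vehicle's composition. Array numbers are not reused between groups, and each names a single array. Because whole lung was measured, fewer cells of a type and less RNA per cell cannot be told apart. Separate animals are implied only by the planned group sizes, so the p-values speak only of the spread among these arrays.

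Signal is given in log2 units after quantile normalization over the 20 arrays. Before it the arrays differed in brightness: the deposited median averaged 6.06 ± 0.28 in Marfan sildenafil, 6.03 ± 0.13 in Marfan vehicle, 6.05 ± 0.14 in wild-type sildenafil and 5.66 ± 0.19 in wild-type vehicle arrays (SD; n = 5, 5, 4 and 6). The list of lung markers (surfactant, alveolar and club cell genes, 8 genes) had a level between -0.05 and 0.09 on every array. Marfan sildenafil array 9 stood apart: its cardiac muscle list (10 genes) lay at -2.42, against 0.05 to 0.61 on the other 4 arrays of its group, its endothelial list at -1.02 and its alveolar macrophage list at 1.52. Airway cell markers were also lower on array 9. The club cell list lay at -0.84, against -0.03 to 0.09 on the other 4 arrays of the group. The ciliated cell list lay at -0.72, against -0.08 to 0.23. A list level is the median deviation of its genes from their means over all arrays. Several results that may rest on array 9 are given with and without it, but not all. Of the members, 81 lay in the brighter 50% of genes. The exceptions were Cox7b2, Cox8c and Cox8b, with means of 3.74, 4.43 and 5.52, against 2.77 to 2.95 for the median of 23 background probe sets. A signal depends on the probes as well as on the RNA, so levels are compared within a gene and not between genes.

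Promoters of nuclear subunit genes are known targets of the factors NRF1, NRF2 (an ETS-family factor also called GABP) and YY1. RefSeq promoters on GRCm38.p6, running from 250 bases before to 50 after a start, were found for 69 of the 84 members, 5 of them with more than 1 start. They are shown for 3 complex III subunits and 1 complex I subunit that the results below turn on: Uqcrh, Uqcr11 and Ndufb3 were among the genes with lower signal under sildenafil, and Uqcrc1 was not. Capitals mark a match to GCATGCGC (an NRF1 core) or CCGGAAG (an ETS site) on either strand, and letters follow the strand of the gene. The first lies at chr4:116075021-116075320 on the minus strand, with an ETS match that starts 10 bases before the start.
Uqcrh: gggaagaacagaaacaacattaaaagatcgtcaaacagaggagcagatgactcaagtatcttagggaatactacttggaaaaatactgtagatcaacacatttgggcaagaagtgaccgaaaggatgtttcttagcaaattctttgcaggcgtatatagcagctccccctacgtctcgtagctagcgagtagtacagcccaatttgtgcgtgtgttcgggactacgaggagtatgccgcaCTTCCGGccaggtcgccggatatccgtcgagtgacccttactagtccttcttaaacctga
The promoter of Uqcr11 at chr10:80406772-80407071, minus strand, holds an ETS match that starts 66 bases and an NRF1 match that starts 4 bases before the start.
Uqcr11: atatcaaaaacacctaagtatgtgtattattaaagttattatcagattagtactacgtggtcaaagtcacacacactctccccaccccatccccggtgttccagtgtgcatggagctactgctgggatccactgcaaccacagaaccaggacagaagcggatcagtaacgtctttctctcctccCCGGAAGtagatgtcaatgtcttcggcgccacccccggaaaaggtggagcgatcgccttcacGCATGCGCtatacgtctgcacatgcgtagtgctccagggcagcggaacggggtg
Uqcrc1 (chr9:108936398-108936697, plus strand) has overlapping NRF1 matches on both strands, which begin at bases 31 and 33 after the start.
Uqcrc1: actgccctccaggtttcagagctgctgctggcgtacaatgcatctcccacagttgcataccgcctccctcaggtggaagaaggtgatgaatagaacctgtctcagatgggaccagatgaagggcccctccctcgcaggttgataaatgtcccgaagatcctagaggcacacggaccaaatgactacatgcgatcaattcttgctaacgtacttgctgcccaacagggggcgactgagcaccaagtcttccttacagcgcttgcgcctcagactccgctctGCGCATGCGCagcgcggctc
No match was found in the promoter of Ndufb3 (chr1:58586147-58586446, plus strand).
Ndufb3: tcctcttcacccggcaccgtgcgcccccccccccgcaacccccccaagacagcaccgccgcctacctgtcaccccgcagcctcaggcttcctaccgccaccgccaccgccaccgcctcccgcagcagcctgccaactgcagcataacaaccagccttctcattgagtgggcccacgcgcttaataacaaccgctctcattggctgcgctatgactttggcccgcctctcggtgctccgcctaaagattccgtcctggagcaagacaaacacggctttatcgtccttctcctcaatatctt
The NRF1 core was present in 10 of 69 member promoters (14.5%), against 3.05% of the 27025 genes with a promoter and 4.10% of the 15691 of them annotated on the array. The ETS site was present in 17 (24.6%), against 9.93% and 13.2%, and the YY1 site AAGATGGCG in 7 (10.1%), against 1.64% and 2.23%. Any of these motifs was found in 28 members (40.6%) and in 13.6% of all genes. The motifs were about as common in members that were lower as in the rest. Of the 31 members with a promoter that were lower under sildenafil in wild-type lungs, 12 (38.7%) held a motif, as did 16 of the other 38 (42.1%).

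The subunit genes stood highest in wild-type lungs given vehicle. The level of the members on an array, the median over the 84 genes of the deviation from each gene's mean, was -0.24, 0.07, -0.02, -0.15 and -0.13 on Marfan sildenafil arrays 8 to 12. It was -0.11, 0.19, 0.09, -0.04 and -0.07 on Marfan vehicle arrays 20 to 24. On wild-type sildenafil arrays 1, 4, 5 and 6 it was 0.03, -0.13, -0.03 and -0.21, against a lowest, median and highest value of -0.03, 0.13 and 0.36 on the 6 wild-type vehicle arrays. The groups overlapped in each comparison: wild-type sildenafil array 1 lay above wild-type vehicle arrays 14 and 17. Means were -0.09 ± 0.12 in Marfan sildenafil, 0.01 ± 0.13 in Marfan vehicle, -0.08 ± 0.10 in wild-type sildenafil and 0.14 ± 0.15 in wild-type vehicle lungs (SD; n = 5, 5, 4 and 6). The group means ran in the same order in complexes I to IV, with wild-type vehicle at the top, then Marfan vehicle, wild-type sildenafil and Marfan sildenafil. In complex V the sildenafil groups changed places, and complex II, with 4 genes, showed the smallest distance between group means.

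**Figure D1:**
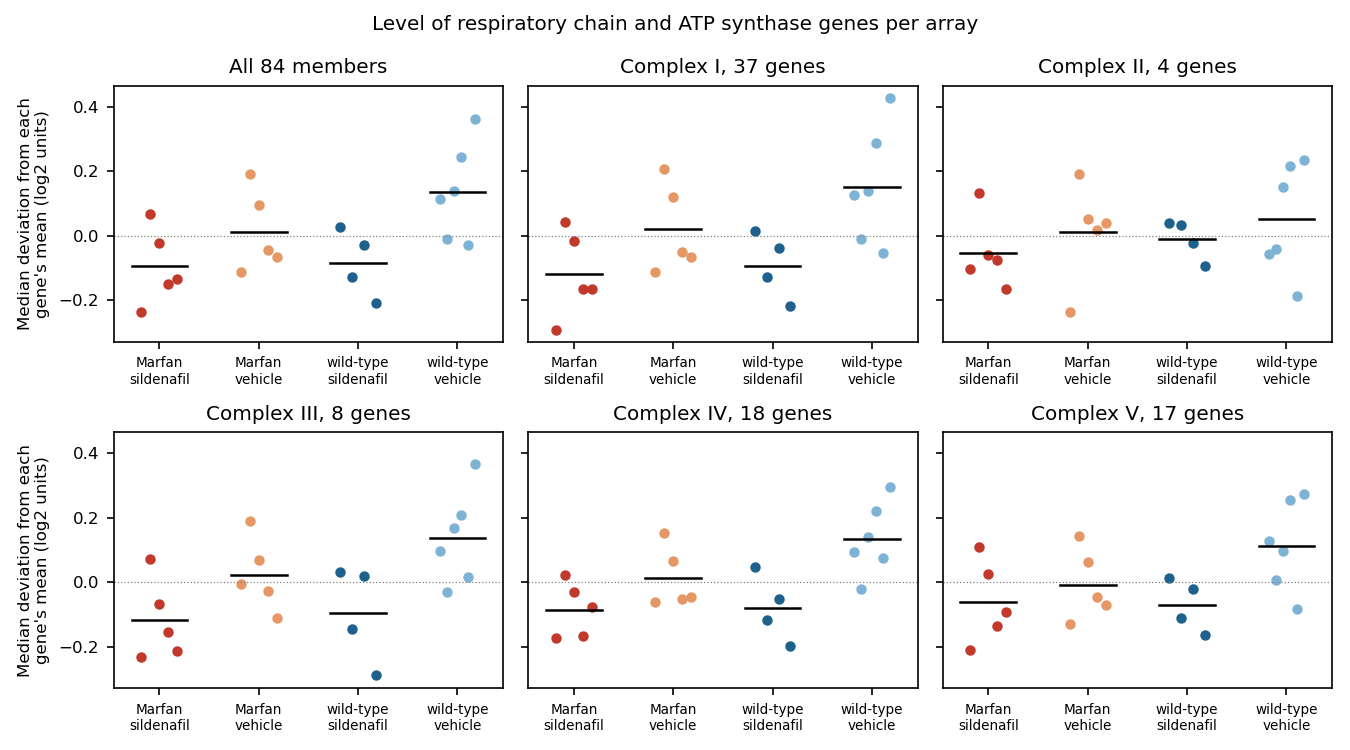
Level of the member genes on each of the 20 arrays, in all and by complex (vertical axis, median deviation from each gene's mean in log2 units after quantile normalization), with 1 point per array and a bar at each group mean. Wild-type vehicle arrays hold the highest mean in every panel, at 0.14 for all members, and complex II shows the smallest separation.

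The first question was what sildenafil did in wild-type lungs. The lowest values, down to -0.47 log2 units, were those of accessory subunits of complexes I and IV, and some core subunits, such as Sdha, Uqcrc1 and Atp5a1, lay between 0.01 and 0.08. In all, 76 of 84 members had a difference below 0, against 50.4% of all genes. The median difference was -0.22, against -0.0018 for all genes. On the deposited values, where the median of all genes moved to 0.28, the member median was 0.05, which is -0.23 relative to that median, and at unadjusted p 5 members were higher and 0 lower, against 27.0% and 0.246% of all genes. After quantile normalization, at an unadjusted limma p under 0.05, 37 members (44.0%) were lower, against 4.45% of all genes, and 0 were higher, against 4.65%. After Benjamini-Hochberg adjustment over 19505 genes 0 members passed, the lowest adjusted p being 0.354, and 0% of all genes passed. Changes of 0.5 log2 units were called in 23.9% of cases when this comparison was simulated together with larger changes of 1 and 2 log2 units. Larger changes ease the adjustment, so the share could be lower without them, which was not simulated. The groups did not overlap for 11 members, each lower under sildenafil, against 1.3% of all genes, and 0 were higher without overlap, against 1.42%. Markers of other cell types also differed in this comparison. Of 6 endothelial markers 3 were higher at unadjusted p and 0 lower, with Plvap at 0.57 ± 0.15, and the list level ran from 0.13 to 0.17 on the sildenafil arrays, against -0.28 to 0.10 on the vehicle arrays. Of 7 ciliated cell markers 2 were lower and 0 higher, with Rsph1 at -0.58 ± 0.13, and the list level ran from -0.25 to -0.05, against -0.17 to 0.21. None passed after adjustment, and their part in the member differences was not tested.

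By complex, the genes lower at unadjusted p were 15 of 37 in complex I, 1 of 4 in complex II, 5 of 8 in complex III, 8 of 18 in complex IV and 8 of 17 in complex V. Medians of the difference were -0.25, -0.06, -0.26, -0.21 and -0.19 for complexes I to V.

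**Figure D2:**
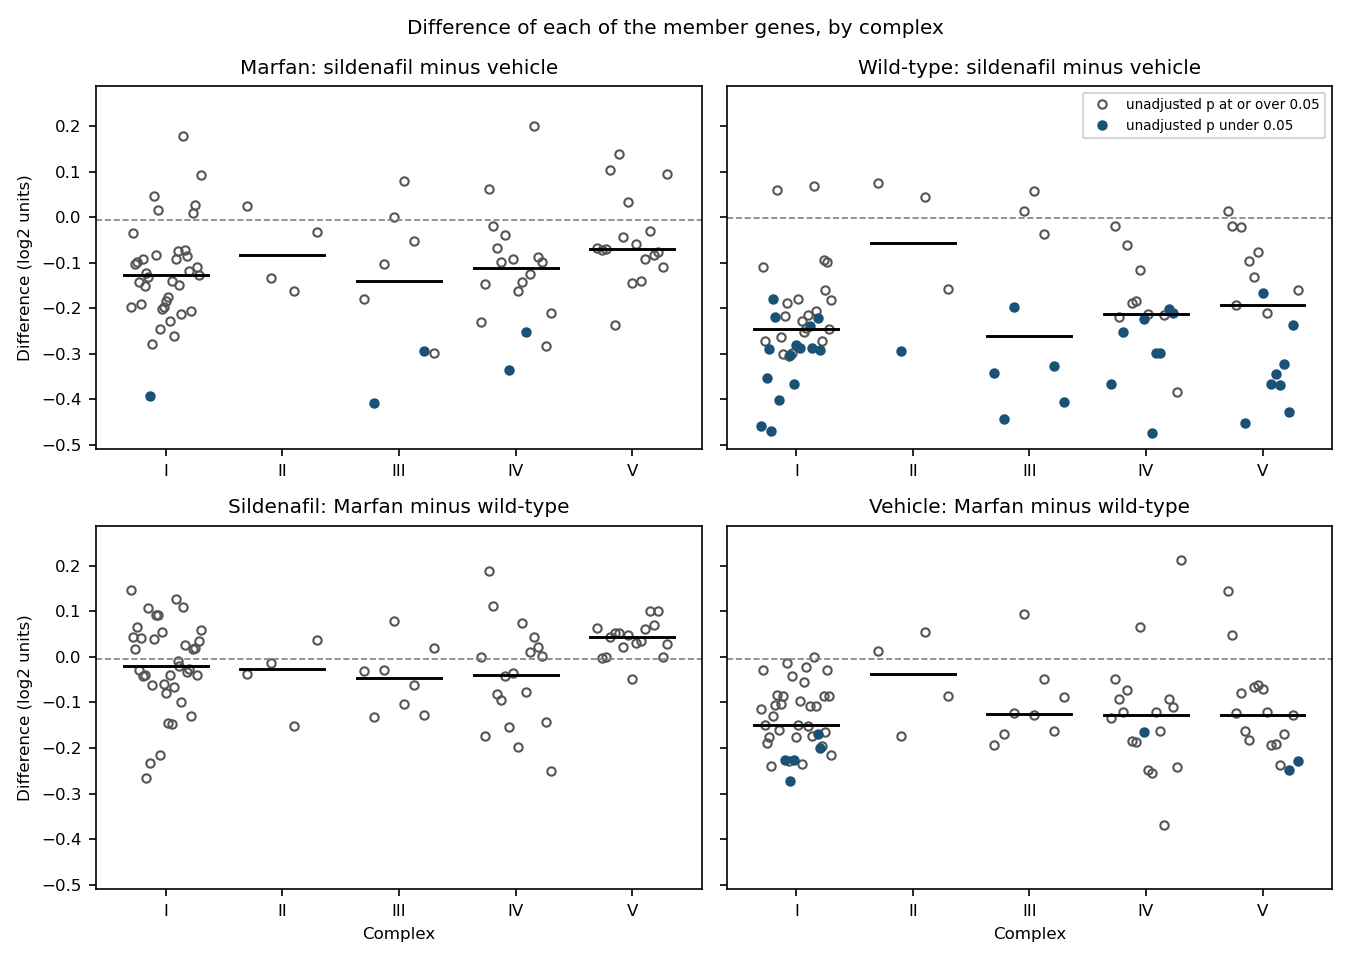
Difference of every member gene by complex in the comparisons of sildenafil with vehicle (top) and of Marfan with wild-type (bottom), in log2 units after quantile normalization. Each circle is a gene, filled where the unadjusted limma p was under 0.05, bars are medians and the dashed line is the median of all genes. The wild-type sildenafil panel holds 37 filled circles, all below 0, although 0 genes passed after adjustment and the median of the members moved to 0.05 on the deposited values, against 0.28 for all genes.

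Complex III hands electrons from ubiquinol to cytochrome c. Its hinge subunit gene Uqcrh, whose product helps complex III to bind cytochrome c, had 10.32, 10.22, 10.50, 10.25 and 10.31 log2 units in Marfan sildenafil lungs, against 10.62, 10.68, 10.50, 10.66 and 10.59 in Marfan vehicle lungs. In wild-type lungs it had 10.52, 10.38, 10.58 and 10.31 under sildenafil, against a lowest, median and highest value of 10.62, 10.73 and 11.06 under vehicle. Every sildenafil array lay below every vehicle array of the same genotype, by less than the printed decimals show for the closest pair of Marfan arrays. Fitted differences are given ± SE. In Marfan lungs that of Uqcrh was -0.29 ± 0.09 (adjusted p = 0.677, limma). In wild-type lungs it was -0.33 ± 0.09 (adjusted p = 0.354).

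Uqcr11, a small subunit of the membrane part of complex III, had 6.15, 6.90, 6.63, 6.27 and 6.48 in Marfan sildenafil lungs, against 7.19, 6.98, 7.16, 6.77 and 6.36 in Marfan vehicle lungs. In wild-type sildenafil lungs it had 6.78, 6.53, 6.70 and 6.46, against 6.67, 7.08 and 7.36 (lowest, median, highest) in wild-type vehicle lungs. The groups overlapped in both genotypes. Its difference was -0.41 ± 0.17 in Marfan and -0.44 ± 0.17 in wild-type lungs (adjusted p = 0.723 and 0.456). Uqcrq, a small ubiquinone-binding subunit, had 8.53, 8.36, 8.33 and 7.98 in wild-type sildenafil lungs, against 8.47, 8.63 and 9.15 (lowest, median, highest) in wild-type vehicle lungs, a difference of -0.41 ± 0.15 (adjusted p = 0.455). The accessory subunits Uqcr10 and Uqcrb differed by -0.34 ± 0.14 and -0.20 ± 0.08. The core subunits of the same complex lay nearer to 0. Uqcrc1 and Uqcrc2, the large matrix-facing core proteins, differed by 0.01 ± 0.15 and 0.06 ± 0.11, and Uqcrfs1, the Rieske iron-sulfur protein, by -0.04 ± 0.11.

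Complex I oxidises NADH. Ndufb3, an accessory subunit of its membrane arm, had 7.48, 7.63, 7.78, 7.47 and 7.67 in Marfan sildenafil lungs, against 7.81, 8.07, 7.72, 7.74 and 7.68 in Marfan vehicle lungs. In wild-type lungs given sildenafil it had 7.67, 7.58, 7.77 and 7.65, all below the wild-type vehicle values of 7.83, 8.07 and 8.21 (lowest, median, highest). The difference in Marfan lungs was -0.20 ± 0.10 (adjusted p = 0.756), and that in wild-type lungs -0.37 ± 0.10 (adjusted p = 0.361). Ndufa5, an accessory subunit of the matrix arm, had 8.44, 8.28, 8.48 and 8.41 in wild-type sildenafil lungs, against 8.57, 8.77 and 9.08 in wild-type vehicle lungs, again without overlap, and differed by -0.40 ± 0.12 (adjusted p = 0.361). The lowest values of complex I were those of Ndufa2 (-0.47 ± 0.14) and Ndufa1 (-0.46 ± 0.15), both accessory subunits. Ndufa12 (-0.35 ± 0.12) and Ndufs4 (-0.22 ± 0.09), subunits known for inherited complex I deficiency in humans, also had groups that did not overlap. By contrast Ndufs1, the largest iron-sulfur subunit, stood at 0.07 ± 0.11, and Ndufv1, which carries the NADH-binding flavin site, at -0.10 ± 0.09 (adjusted p = 0.9 and 0.812). Ndufb10, another accessory subunit of the membrane arm, stood at -0.31 ± 0.18, with one of the largest spreads within groups (SD 0.31). Ndufb4b, a near copy of Ndufb4 whose probes may not separate the pair, stood at -0.18 ± 0.10.

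Complex IV, cytochrome c oxidase, has its catalytic subunits encoded by mitochondrial DNA, which the gene annotation of the array did not list under any of 26 symbols searched. Among its nuclear subunits Cox7a2, the isoform of subunit VIIa found in most tissues, had 8.80, 8.59, 8.49 and 8.21 in wild-type sildenafil lungs, against 8.69, 8.93 and 9.54 in wild-type vehicle lungs. Arrays of the groups overlapped. The difference was -0.47 ± 0.15 (adjusted p = 0.38). Cox4i1, the common isoform of the regulatory subunit IV, stood at -0.37 ± 0.14, Cox7b at -0.30 ± 0.12, Cox5b at -0.25 ± 0.10 and Cox6c at -0.22 ± 0.08, all 4 lower at unadjusted p. Cox5a (-0.22 ± 0.12), Cox6b1 (-0.18 ± 0.12) and Cox6a1 (-0.06 ± 0.08) were not. Cox7a2l, which joins complexes III and IV into supercomplexes, was lower at unadjusted p in both genotypes. It had 9.19, 9.74, 9.67, 9.48 and 9.33 in Marfan sildenafil lungs, against 9.66, 9.80, 9.97, 9.65 and 9.59 in Marfan vehicle lungs. In wild-type lungs the values were 9.70, 9.57, 9.53 and 9.43 under sildenafil, against 9.57, 9.88 and 10.21 under vehicle. The difference was -0.25 ± 0.12 in Marfan and -0.30 ± 0.12 in wild-type lungs (adjusted p = 0.738 and 0.477), with overlap in both. Ndufa4, named for complex I but found with complex IV in later structural work, stood at -0.22 ± 0.10 in wild-type lungs.

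Complex II, succinate dehydrogenase, is also an enzyme of the citric acid cycle. Sdhb, its iron-sulfur subunit, had 9.07, 9.13, 9.08 and 8.84 in wild-type sildenafil lungs, against 9.13, 9.26 and 9.73 in wild-type vehicle lungs. The highest sildenafil array lay just below the lowest vehicle array, and the difference was -0.29 ± 0.11 (adjusted p = 0.439). Sdha, the flavoprotein, stood at 0.08 ± 0.11, and the membrane anchors Sdhc and Sdhd at 0.04 ± 0.13 and -0.16.

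In complex V 16 of 17 genes lay below 0. Atp5mpl, a small proteolipid of the membrane sector, had 9.90, 9.75, 9.91 and 9.62 in wild-type sildenafil lungs, against 10.06, 10.14 and 10.63 in wild-type vehicle lungs. Atp5j2, subunit f of the membrane sector, had 10.39, 10.23, 10.38 and 9.99, against 10.46, 10.54 and 10.93. In neither did the groups overlap, with differences of -0.43 ± 0.12 and -0.37 ± 0.11 (adjusted p = 0.361 for both). Other membrane subunits were Atp5l (-0.37 ± 0.15), Atp5k (-0.34 ± 0.14) and Atp5md (-0.32 ± 0.12), each lower at unadjusted p. The 3 genes of the membrane ring, Atp5g1, Atp5g2 and Atp5g3, stood at -0.10 ± 0.11, -0.13 ± 0.10 and -0.08 ± 0.10, and were not. Atp5e, the epsilon subunit of the central stalk, stood at -0.45 ± 0.20. Atp5h, a subunit of the peripheral stalk, stood at -0.17 ± 0.08, with 11.59, 11.50, 11.59 and 11.52 under sildenafil against 11.62, 11.71 and 11.85 under vehicle. The catalytic beta subunit Atp5b had 10.80, 10.77, 10.78 and 10.61 in wild-type sildenafil lungs, against 10.69, 10.76 and 10.81 in wild-type vehicle lungs, a difference of -0.02 ± 0.07. Atp5a1, the alpha subunit, stood at 0.01 ± 0.08.

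Core subunits, here a list of 13 members, can be set beside the other members by counts. They are Ndufs1, Ndufs3, Ndufs7, Ndufs8, Ndufv1, Ndufv2, Sdha, Sdhb, Uqcrc1, Uqcrc2, Uqcrfs1, Atp5a1 and Atp5b. Most carry redox centres or catalytic sites or are large core proteins of complex III, but not all do. The complex II membrane anchors Sdhc and Sdhd were counted with the other members, and the complex III subunit Cyc1 lay outside the symbol rule. Under another division the counts could differ. Under sildenafil in wild-type lungs their median difference was -0.04, with 8 below 0 and 1, Sdhb, lower at unadjusted p. For the other 71 members the median was -0.24, with 68 below 0 and 36 lower. The core was not uniform: the complex I subunits Ndufv2, Ndufs3, Ndufs8 and Ndufs7 stood at -0.25 ± 0.13, -0.21 ± 0.11, -0.16 ± 0.14 and -0.10 ± 0.14. This division was made with the results known, and the difference between the sets was not tested.

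**Figure D3:**
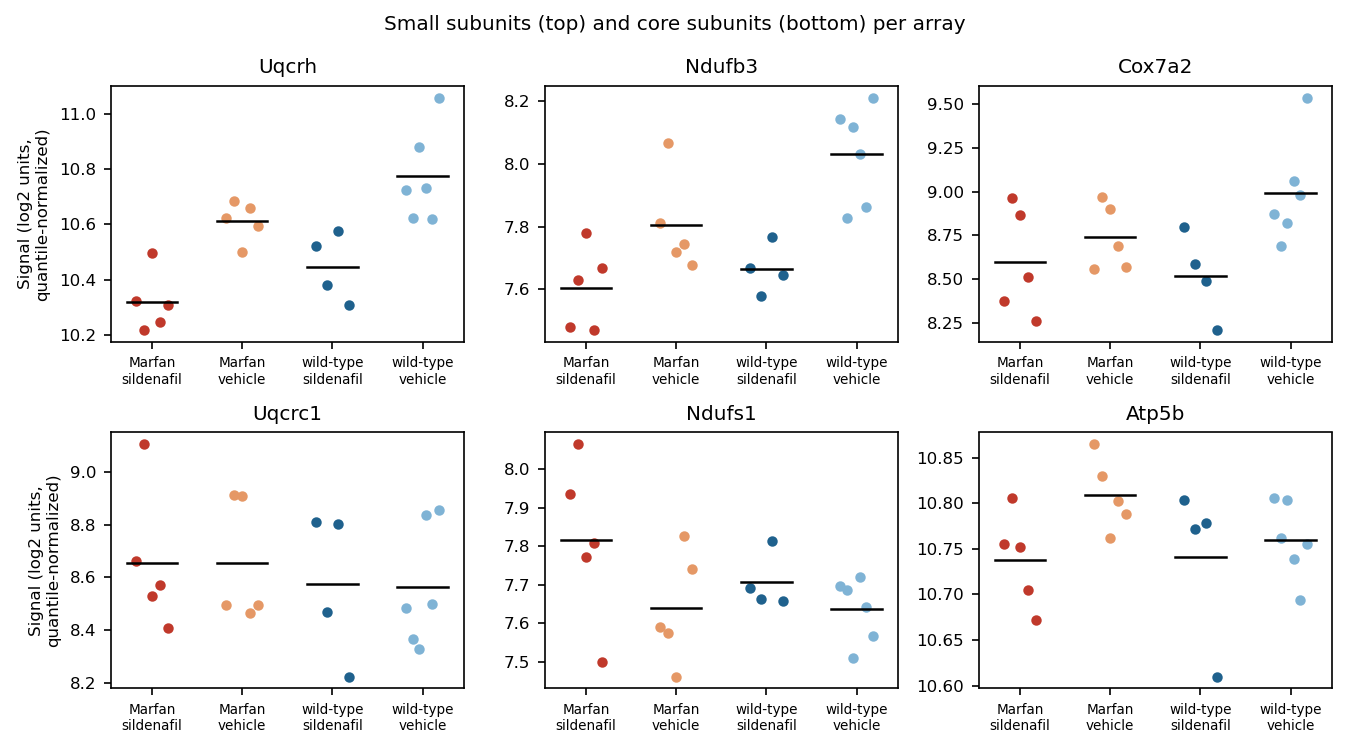
Signal of 3 accessory subunit genes (top) and 3 core subunit genes (bottom) on each array, in log2 units after quantile normalization, with 1 point per array and a bar at the group mean. Uqcrh is below its vehicle values on every sildenafil array of the same genotype, and the bottom panels show overlap in both genotypes. The panels are picked examples. In wild-type lungs under sildenafil the core gene Sdhb, not shown, differed by -0.29 without overlap, and the accessory gene Cox6a1 by -0.06.

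The next question was the same for Marfan lungs. In Marfan lungs 70 of 84 members lay below 0, against 51.6% of all genes, and the median difference under sildenafil was -0.10, against -0.0067. At unadjusted p, 5 members (5.95%) were lower, against 3.41% of all genes, and 0 were higher, against 3.29%. After adjustment 0 members passed (limma, lowest adjusted p = 0.677), as for 0% of all genes. Uqcrh alone had groups that did not overlap, against 0.492% of all genes with lower signal. Ndufa6, an accessory complex I subunit, had 8.48, 8.95, 8.96, 8.59 and 8.66 in Marfan sildenafil lungs, against 9.02, 9.39, 9.20, 9.11 and 8.88 in Marfan vehicle lungs, a difference of -0.39 ± 0.14 (adjusted p = 0.706). The groups overlapped, since Marfan vehicle array 24 lay at 8.88. Cox6b2, the testis isoform of subunit VIb, stood at -0.34 ± 0.12, with Uqcr11, Uqcrh and Cox7a2l completing the 5. On array 9 Cox6b2 had 7.54, below the lowest value of the other 19 arrays (7.72), and its difference is given only with that array. Without array 9 the median was -0.14 and 15 members were lower at unadjusted p, against 3.43% of all genes. Without Marfan vehicle array 22 the count was 2, against 3.41%.

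The arrays of the Marfan and wild-type sildenafil comparisons are separate. Of the 84 members, 3 were lower at unadjusted p in both, namely Cox7a2l, Uqcr11 and Uqcrh, against 105 of 19505 genes (0.538%). Those 3 are 60% of the 5 members lower in Marfan and 8.11% of the 37 lower in wild-type lungs. Among all genes the 105 are part of 666 lower in Marfan and 867 lower in wild-type lungs. In all, 65 members were below 0 in both genotypes, against 29.1% of all genes. Averaged over the genotypes, 77 of 84 members lay below 0 (51% of all genes) with a median of -0.16, which on the deposited values was 0.0032, against 0.16 for all genes. At unadjusted p, 42 (50%) were lower, against 5.73% of all genes, and 0 were higher, against 5.17%. Adjusted, 0 members and 0% of all genes passed. Uqcrh came nearest, at -0.31 ± 0.06 (adjusted p = 0.0935), a fold of 0.807, lower in 9 of 9 sildenafil arrays than the vehicle arrays of their genotype. It passed at adjusted p = 0.0454 when only the brighter genes were tested, at 0.0275 with array weights and at 0.0343 without array 9, whereas with array brightness as a covariate it stood at adjusted p = 0.437.

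The difference between the drug effects, Marfan minus wild-type, was tested directly. Its median was 0.11, with 14 of 84 members below 0 (50.4% of all genes), and on the deposited values it was -0.10, against -0.24 for all genes. At unadjusted p, 1 member was higher (1.96% of all genes) and 0 were lower (2.51%), and 0 passed after adjustment (limma, lowest adjusted p = 0.984, 0% of all genes). The 1 was Atp5mpl, at 0.35 ± 0.17 (adjusted p = 0.984). It had 9.71, 10.26, 9.97, 9.82 and 9.73 in Marfan sildenafil lungs, against 9.91, 10.26, 9.81, 9.99 and 9.91 in Marfan vehicle lungs. The standard error of a single gene in this contrast had a median of 0.17 over the members. It does not measure the uncertainty of the median difference, which was not tested.

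The comparison of genotypes asked whether Marfan lungs differ without and with the drug. Under vehicle 76 of 84 members lay below 0 in Marfan lungs (51.2% of all genes), with a median of -0.13, and 8 were lower at unadjusted p (9.52%), against 2.78% of all genes. Higher members at unadjusted p were 0, against 3.48%, and 0 passed adjusted (limma, lowest adjusted p = 0.789, 0% of all genes). On the deposited values the median was 0.10, which is -0.15 relative to the median of all genes. This comparison shares the wild-type vehicle arrays with the sildenafil comparison in wild-type lungs. Ndufb11, an accessory complex I subunit encoded on the X chromosome, had 8.13, 8.68, 8.60, 8.18 and 8.21 in Marfan vehicle lungs, against 8.26, 8.67 and 9.10 in wild-type vehicle lungs. Its difference was -0.27 ± 0.13 (adjusted p = 0.79). Atp5pb, subunit b of the peripheral stalk of ATP synthase, had 9.12, 9.61, 9.45, 9.49 and 9.38, against 9.39, 9.65 and 9.87, and differed by -0.23 ± 0.10. Ndufa8, an accessory complex I subunit, had 9.15, 9.41, 9.55, 9.29 and 9.42, against 9.33, 9.62 and 9.81, a difference of -0.23 ± 0.10. Groups overlapped for all 84 members (0.267% of all genes were lower without overlap). Without wild-type vehicle array 18, the dimmest array and the one with the highest member level, the median was -0.09 and 1 member was lower, against 2.28% of all genes. Without Marfan vehicle array 21 it was -0.17, with 16 lower, against 3.14%.

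Under sildenafil the median of Marfan minus wild-type was 0.00018, and 42 of 84 members lay below 0 (51.2% of all genes). This balance moved with single arrays. The median was -0.05 without Marfan sildenafil array 9 and 0.04 without Marfan sildenafil array 8. With each array left out in turn, 32 to 63 members lay below 0. At unadjusted p 0 were lower (2.03%) and 0 higher (1.87%). Adjusted, 0 members passed by limma (lowest adjusted p = 1, 0% of all genes). Groups did not overlap for 0 lower members, against 0.749% of all genes. For Uqcrh the difference was -0.13 ± 0.09 and for Ndufb3 -0.06 ± 0.11. Averaged over treatments the median of Marfan minus wild-type was -0.07, with 74 below 0 (51.8% of all genes) and 3 lower at unadjusted p (3.57%, against 2.55% of all genes), among them Ndufb11 at -0.24 ± 0.10. At unadjusted p 0 were higher, against 2.8% of all genes. In this average too 0 passed after adjustment (0% of all genes).

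Array brightness moved with these differences. Wild-type vehicle arrays had the highest mean member level and the lowest mean deposited median. Array 18 was the dimmest, at 5.32, and had the highest member level, whereas the next dimmest, wild-type vehicle array 17 at 5.55, had a level of -0.03. Marfan sildenafil array 9, at 5.73, was dimmer than 3 wild-type vehicle arrays. In the brightest array, Marfan sildenafil array 11 with a median of 6.45, the member level was -0.15. With the deposited median as a covariate the wild-type sildenafil median was -0.13, with 73 members below 0 and 1 lower at unadjusted p in place of 37, against 3.01% of all genes. The Marfan sildenafil median stood at -0.10 with 6 lower (3.66% of all genes), where the groups were similar in brightness. Under vehicle the genotype median became -0.03 with 2 lower (3.52% of all genes), and the averaged sildenafil median -0.12 with 9 lower (4.29%). Brightness and group cannot be told apart for the wild-type vehicle arrays, whose medians of 5.32 to 5.83 lay below all 4 wild-type sildenafil arrays (5.87 to 6.19).

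**Figure D4:**
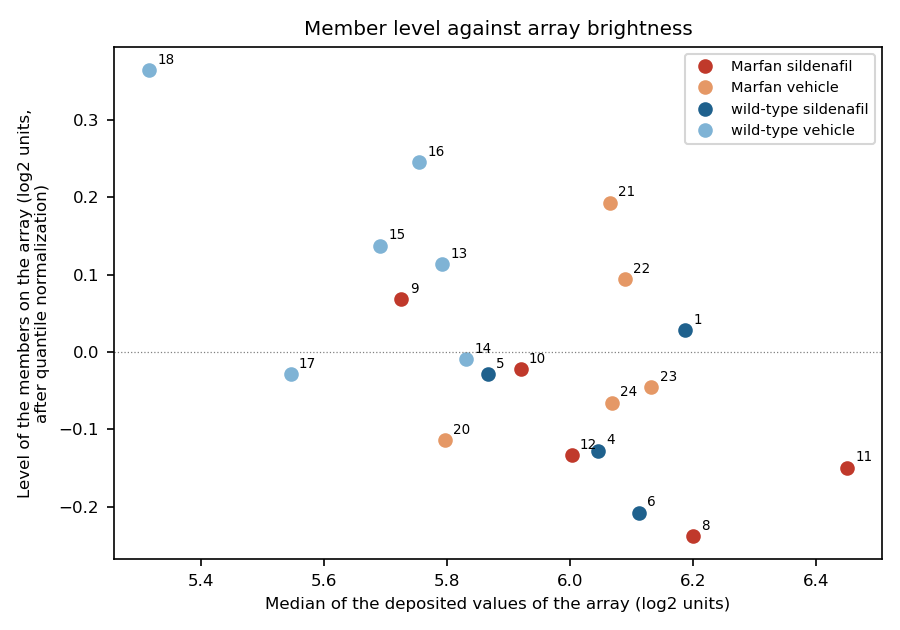
Member level of each array (vertical axis, log2 units after quantile normalization) against the median of its deposited values (horizontal axis, log2 units), with points coloured by group and labelled by array number. Most wild-type vehicle arrays lie to the left, array 18 being the dimmest with the highest member level at 0.36 and array 17 the next dimmest at -0.03.

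Isoforms linked to muscle and to oxygen sensing were among the lowest members on array 9. On it 7 members lay below all 19 other arrays (8.33%, against 13.8% of all genes), namely Cox4i2, Cox6a2, Cox6b2, Cox7a1, Cox8b, Ndufa4l2 and Uqcrh. Another 4 lay above all the others (4.76%, against 12.4% of all genes), namely Atp5g3, Cox5a, Ndufs1 and Uqcrc1. Both shares are below those of all genes. Cox8b, the heart and muscle isoform of subunit VIII, had 5.45, 4.39, 5.51, 5.62 and 5.34 on Marfan sildenafil arrays 8 to 12. Cox6a2, the heart and muscle isoform of subunit VIa, had 9.62, 9.03, 9.74, 9.83 and 9.66. Cox7a1, the muscle isoform of subunit VIIa, had 6.11, 5.90, 6.38, 6.76 and 6.46. In each the second value, from array 9, is the lowest. The atrial myosin light chain gene Myl7, a marker of atrial muscle, had 8.39, 5.41, 8.57, 9.08 and 8.66 on the same arrays. Of the common counterparts, Cox4i1 (9.70), Cox8a (11.03) and Cox7a2 (8.97) had their highest Marfan sildenafil value on array 9, while Cox6a1, at 11.29, equalled the lowest of the other 19 arrays.

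Cox4i2, the hypoxia-related isoform of subunit IV, is expressed in lung and in perivascular oxygen-sensing cells. It had 8.13, 7.26, 8.53, 8.27 and 8.51 in Marfan sildenafil lungs, against 8.34, 8.35, 8.70, 7.79 and 8.26 in Marfan vehicle lungs. Ndufa4l2, a paralogue of Ndufa4 induced by hypoxia and found in pericytes, had 7.53, 6.97, 7.84, 7.86 and 8.00, against 7.81, 7.69, 8.23, 7.25 and 7.83. In both genes the lowest Marfan vehicle value was that of array 23 and the lowest Marfan sildenafil value that of array 9. The smooth muscle list on array 9 lay at -0.78, and the part of other cell types in these values was not tested. The sildenafil differences were -0.15 ± 0.18 for Cox4i2 and -0.12 ± 0.18 for Ndufa4l2 in Marfan lungs, and -0.02 ± 0.19 and 0.06 ± 0.19 in wild-type lungs. Without array 9 the Marfan means differed by 0.07 for Cox4i2 and 0.04 for Ndufa4l2, so that the sign turned on that array. For Cox6a2, Cox7a1 and Cox8b the Marfan means differed by -0.10, -0.16 and -0.28 with array 9, and by 0.04, -0.06 and -0.07 without it. For Cox6a2, Cox7a1 and Cox8b the wild-type differences were -0.19 ± 0.12, -0.21 ± 0.19 and -0.38 ± 0.24, none with an unadjusted p under 0.05. Cox8c and Cox7b2, known from testis, lay near background and differed by 0.25 ± 0.18 and -0.22 ± 0.20. Of the members, Cox8b varied most between arrays of a group, with a within-group SD of 0.40, array 9 included.

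**Figure D5:**
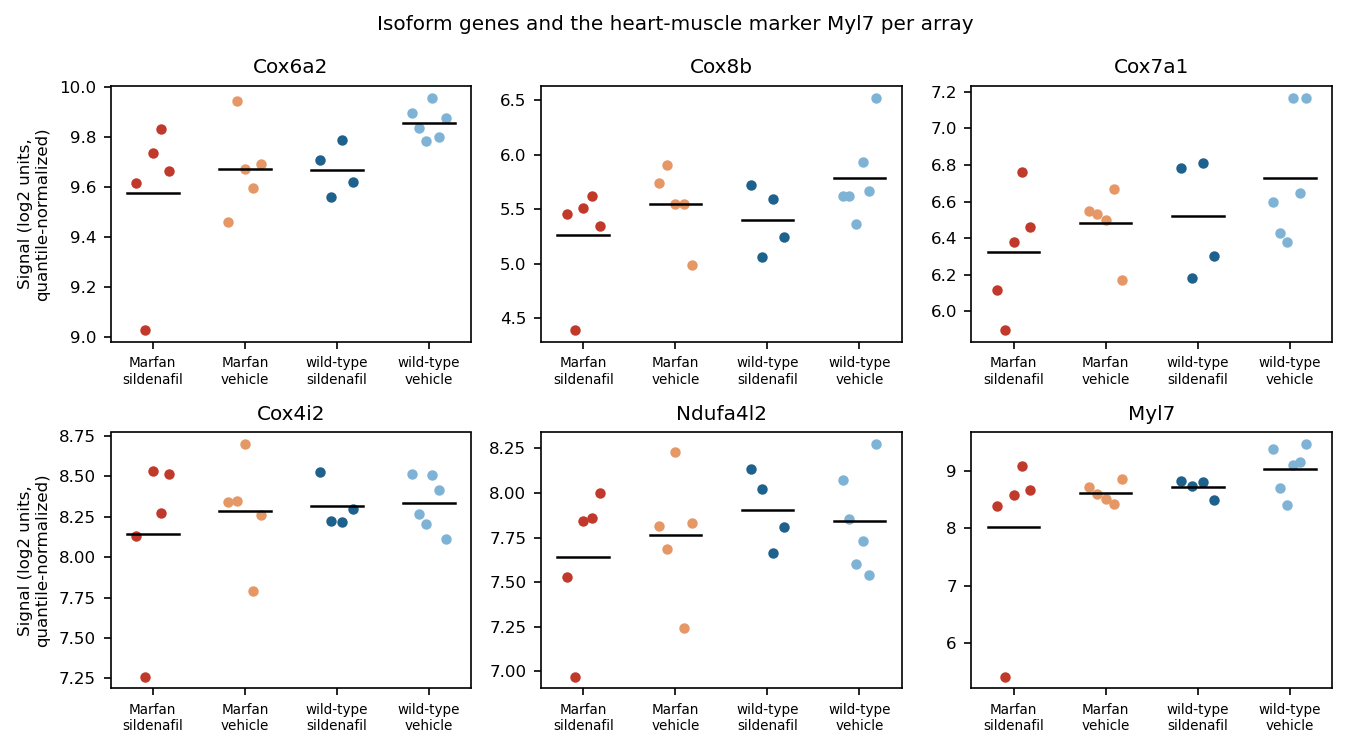
Signal of 5 isoform genes and of the atrial muscle marker Myl7 on each array, in log2 units after quantile normalization, with 1 point per array and a bar at the group mean. Array 9 gives the lowest Marfan sildenafil point in every panel, at 4.39 for Cox8b and 5.41 for Myl7.

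Genes that work with the complexes were described in the same way, from lists chosen by function. Of 48 assembly factors 45 were measured, and in wild-type lungs under sildenafil 11 were lower and 1 higher at unadjusted p, with a median of -0.15. In this comparison 4.45% of all genes were lower and 4.65% higher, against which the small counts of the other lists are also to be read. Cox11, a copper chaperone of complex IV, stood at -0.43 ± 0.16, and Taco1, a translational activator of mitochondrially encoded Cox1, at -0.38 ± 0.14. Coa5, a complex IV assembly factor, was the 1 on the other side, at 0.32 ± 0.12. Another list, called the carrier list, held 11 genes: electron carriers, ubiquinone synthesis genes and the subunits Cyc1 and Ndufab1. Of these 10 were measured, 2 were lower and 0 higher, and the median was -0.19. Cytochrome c (Cycs) stood at -0.26 ± 0.10 and Etfa, part of the electron transfer flavoprotein, at -0.25 ± 0.09. In Marfan lungs under sildenafil 3 of 45 assembly factors were lower and 1 higher, with a median of -0.12. Of the 10 measured genes of the carrier list 2 were lower and 0 higher, with a median of -0.02. In that comparison 3.41% of all genes were lower and 3.29% higher. Coq9, a carrier-list gene needed to make ubiquinone, stood at -0.40 ± 0.12 (limma, adjusted p = 0.677). Its groups did not overlap, against 0.492% of all genes with lower signal.

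In the citric acid cycle 1 of 17 measured genes was lower and 0 higher in wild-type lungs under sildenafil, with a median of -0.05. In Marfan lungs 2 were lower and 1 higher, with a median of -0.02. Fumarase (Fh1) stood at -0.22 ± 0.08 in Marfan and -0.23 ± 0.08 in wild-type lungs. Over 16 glycolysis genes the median of the differences under sildenafil was 0.13 in Marfan lungs, -0.00476 without array 9, and 0.09 in wild-type lungs. The list levels per array did not follow the same direction in wild-type lungs, with a median of -0.06 under sildenafil, against -0.03 under vehicle. In Marfan lungs array 9 stood at 0.65 and the other sildenafil arrays at -0.02 to 0.07, against -0.10 to 0.15 under vehicle. At unadjusted p, 1 glycolysis gene was lower and 0 higher in wild-type lungs, the 1 being the lactate dehydrogenase gene Ldhb at -0.32 ± 0.15. In Marfan lungs 1 was lower and 1 higher. Of 15 measured regulators of mitochondrial genes 0 were lower and 1 higher in wild-type lungs, with a median of -0.03. The 1 was Polg, the mitochondrial DNA polymerase, at 0.31 ± 0.14. In Marfan lungs under sildenafil 1 regulator was lower and 1 higher, with a median of 0.01. There Nrf1 stood at -0.28 ± 0.13, or -0.16 without array 9, and Gabpb1, a subunit of GABP, at 0.26 ± 0.10, or 0.27 without it. After adjustment 0 genes of these lists passed in either comparison by limma, where 0% of all genes did.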

How the data were processed

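Total lung RNA (700 pg, integrity above 8.5, per the labels' protocols) was hybridised to Affymetrix arrays. Per the submitters' processing notes, the authors used Affymetrix Expression Console and RMA, with versions not given in the sources used here, and deposited log2 values. Another 4 columns, titled as failing quality control, hold no values and were not used. Of 29129 table entries, 22206 transcript probe sets gave 19505 genes, each represented by its brightest probe set.

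The deposited log2 values were quantile-normalized over the 20 arrays. All 4 groups entered 1 limma fit with a variance trend (16 residual degrees of freedom; limma 3.58.1, R 4.3.3). Tests were two-sided, p-values were Benjamini-Hochberg adjusted over all genes, and 0.05 was the threshold. The number of arrays limits the precision. On simulated data for sildenafil in wild-type lungs, over 19505 genes, genes set to change by 0.5, 1 and 2 log2 units were called in 23.9%, 88.1% and 100% of cases. All sizes were simulated together and genes independently of each other, so recovery of changes of 0.5 alone was not measured.

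Members and lists were chosen with earlier results of these data known. Named members are any past the adjusted threshold, the 5 with the smallest p per comparison, the smallest p per complex, the 5 most variable, the tissue isoforms and the catalytic core. Of each companion list, up to 3 genes were named. Atp5g1, Atp5g2, Atp5g3, Atp5k, Atp5l, Atp5md, Ndufa1, Ndufa2, Ndufa12, Ndufs3, Ndufs4, Ndufs7, Ndufs8, Ndufv2, Sdhd, Uqcr10, Uqcrb, Uqcrc2 and Uqcrq were named after their values were seen, to complete the complexes. Alternatives were other scalings, brightness as a covariate, a filter on dim genes, array weights, probe set means, fits on the compared groups alone, another variance prior and leaving out each array.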

Additional observations from a re-analysis of the deposited data

Results flagged for a closer look

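Over the groups of 4 to 6 arrays, 168 sets of values from 42 named members and 24 from the member levels were tested, and 5 held an array far from the others of its group by Dixon's criterion, which chance meets in about 1 of 20 groups. Cox8b had 4.388 log2 units on Marfan sildenafil array 9, against 5.34 to 5.62 on the other arrays of the group, and Cox6a2 had 9.027 on the same array, against 9.62 to 9.83. Ndufb4b had 10.6 on Marfan sildenafil array 10, above the 10.31 to 10.35 of the others. Atp5b had 10.61 on wild-type sildenafil array 6, against 10.77 to 10.80, and Ndufv1 had 8.75 on wild-type vehicle array 14, against 9.03 to 9.19.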

How the results depend on the processing

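Over 69 pairs of a named member and a comparison, 503 of 533 values under the other alternatives and 1363 of 1380 with an array left out kept their direction and their side of the threshold. Isoforms, core subunits and the most variable members entered as such only for sildenafil in wild-type lungs. The sign changes of Cox4i2, Ndufa4l2 and Cox6a2 in Marfan lungs without array 9 are thus not counted. No named member passed in the main fit, so a side could change only towards passing. On the deposited values, where the median of all genes moved by up to 0.28, Marfan minus wild-type under vehicle had a member median of 0.0998, and the median was 0.0530 for sildenafil in wild-type lungs, -0.10 for the difference between the drug effects and 0.0032 for sildenafil averaged over genotypes, each relative to that of all genes -0.15, -0.23, 0.13 and -0.15. With arrays centred on their median it was -0.27 for Marfan under vehicle and 0.27 for the difference between the drug effects, and 41 and 53 members were lower at unadjusted p under vehicle and under sildenafil in wild-type lungs in place of 8 and 37, against 14.7% and 14.1% of all genes. On the deposited values the sign turned under vehicle for Ndufb3 (0.0719), Atp5pb (0.0125), Ndufa8 (0.0215), Ndufb11 (0.00957), Sdhb (0.0804) and Uqcrh (0.0384), and for Ndufb3 averaged over treatments (0.0152). It also turned for sildenafil in wild-type lungs for Sdhb (0.0189), Cox8b (0.0221), Cox4i2 (0.312), Ndufb10 (0.0542), Cox6a1 (0.102), Cox6a2 (0.0887), Cox6b1 (0.0875), Cox6b2 (0.22), Cox7a1 (0.19), Cox8a (0.0139), Ndufa4 (0.0226), Ndufv1 (0.22), Uqcrfs1 (0.31) and Atp5b (0.21). Relative to the median of all genes, 19 of these 21 kept the sign they had after quantile normalization, the exceptions being Cox4i2 and Uqcrfs1. With brightness as a covariate it turned for Ndufa4l2 (-0.0527), Ndufv1 (0.000993), Uqcrfs1 (0.0627), Atp5a1 (-0.0189) and Atp5b (0.00601), and after centring for Uqcrc1 (-0.0570) and Atp5a1 (-0.14). Sildenafil averaged over genotypes called 1 member, Uqcrh, among the brighter genes (of 10 genes called in all) and 1 with array weights (of 68), and 0 to 3 with an array left out, namely 3 (Cox4i1, Uqcrh, Uqcrq) of 74 without array 9 and 1 of 25 without array 10. Leaving out an array gave sildenafil differences in wild-type lungs of -0.0153 to 0.146 for Ndufa4l2, -0.0907 to 0.0153 for Cox4i2, -0.0641 to 0.131 for Uqcrc1, -0.0927 to 0.00518 for Uqcrfs1, -0.0209 to 0.0549 for Atp5a1 and -0.0396 to 0.0246 for Atp5b. In wild-type lungs the members lower at unadjusted p under sildenafil numbered 19 without array 6 and 49 without array 14, against 3.15% and 5.01% of all genes. The cause of these changes was not tested. No paired analysis was possible because replicate numbers run on over the groups and none is shared.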
